A study of Homo sapiens with 6 samples.

Results

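NRF2, encoded by NFE2L2, its inhibitor KEAP1 and 8 target genes (NQO1, GCLM, SLC7A11, TXNRD1, AKR1B10, AKR1C1, AKR1C2 and AKR1C3) were followed through the accessible chromatin of 3 esophageal cell lines. They are 10 of the 20162 protein-coding genes of the annotation used here. Each gene was represented by the peaks overlapping its body extended by 20 kb to each side. A peak within 3 kb of any annotated transcription start site of the gene was counted as a promoter peak, and any other as a distal peak. Accessibility was measured by ATAC-seq, in which the Tn5 transposase inserts adaptors into open DNA, on 50000 cells per library. HET-1A, a non-cancerous esophageal epithelial cell line, was cultured in BEBM with its additives and gave libraries 1 and 2. KYSE-30 and KYSE-150, both esophageal squamous cell carcinoma (ESCC) cell lines, were grown in RPMI/F12 with serum and an antibiotic-antimycotic and gave libraries 4 and 6, and 7 and 8. No cells received a treatment according to the labels, so that line and medium cannot be told apart between HET-1A and the carcinoma lines, and the labels do not say whether the 2 libraries of a line came from separate cultures.

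NRF2 is a basic leucine zipper transcription factor of the cap'n'collar family. In unstressed cells KEAP1, an adaptor of a CUL3 ubiquitin ligase, binds NRF2 and hands it over for degradation. Electrophiles and oxidants modify cysteines of KEAP1, NRF2 then accumulates, pairs with a small MAF protein and binds antioxidant response elements (AREs) at genes of glutathione, thioredoxin and quinone metabolism. Mutations of NFE2L2 or KEAP1 that keep NRF2 active are recurrent in squamous carcinomas, those of the esophagus included.

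HET-1A library 2 held 15979 peaks and library 1 held 168. KYSE-30 library 6 held 11671 peaks and library 4 held 1255. KYSE-150 libraries 7 and 8 held 547 and 259. Fold enrichment is the deposited ratio of the tags at the summit of a peak, its highest point, to the local background of the same library, with 1 added to each. The lists give no value for a site without a peak, and a gene without a peak is therefore a gene below the calling limit of that library. As a multiple of the genome background, the smallest summit listed was 3.59 in HET-1A library 2 and 5.38 in library 6 of KYSE-30. The smallest two-sided p that exact permutation of 2 libraries against 2 allows is 0.33, so the lines were not tested against each other. Of 8 epithelial marker genes, KRT6A, KRT8, KRT18 and EPCAM had a promoter peak in HET-1A library 2, and KRT8 and EPCAM in KYSE-30 library 6. KRT5, KRT14, TP63 and CDH1 had none in any library, and neither had the 4 fibroblast, the 3 leukocyte or the 1 endothelial marker genes found.

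The sequences that carry the main results were read from hg19 in the direction of transcription of each gene. Each is shown because a peak covers it, stops short of it or, at GCLM, is absent. The ARE core searched was TGACNNNGC and the AP-1 core TGANTCA, both on either strand, so that a core on the other strand reads in reverse complement. The first 3 are 30 bases around an ARE core, which stands in capitals. They lie under the peak at an internal start of TXNRD1 (chr12:104680698-104680727, plus strand), under the peak at NFE2L2 (chr2:178128331-178128360, minus strand) and just before the start of GCLM (chr1:94375002-94375031, minus strand), where no library had a peak.
TXNRD1 internal start: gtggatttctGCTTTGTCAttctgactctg
NFE2L2 first intron: cttggcttccgTGACAGCGCtcggttggcc
GCLM start: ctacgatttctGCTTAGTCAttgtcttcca
The fourth is 280 bases upstream of NQO1 (chr16:69760651-69760930, minus strand), with TGACTCAGC, an ARE core that contains an AP-1 core, in capitals.
NQO1 upstream: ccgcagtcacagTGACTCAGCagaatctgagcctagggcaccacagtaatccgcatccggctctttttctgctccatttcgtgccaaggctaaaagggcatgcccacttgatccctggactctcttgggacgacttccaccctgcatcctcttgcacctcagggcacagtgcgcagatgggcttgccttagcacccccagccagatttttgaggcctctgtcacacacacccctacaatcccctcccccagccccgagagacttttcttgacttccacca
The fifth is the part of the SLC7A11 promoter peak upstream of the start site (chr4:139163504-139163764, minus strand), with the cores TGATGNAA of amino acid response elements in capitals.
SLC7A11 upstream: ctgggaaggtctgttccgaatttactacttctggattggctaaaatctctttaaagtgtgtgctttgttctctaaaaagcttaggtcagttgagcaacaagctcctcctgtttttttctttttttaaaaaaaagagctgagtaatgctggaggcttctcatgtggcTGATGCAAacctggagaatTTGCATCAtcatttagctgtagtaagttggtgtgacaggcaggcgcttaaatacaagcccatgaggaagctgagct

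Across the 6 libraries the 10 genes had 22 peaks, 7 at promoters and 15 distal. In KYSE-30 library 6, 4 genes had a promoter peak (NFE2L2, NQO1, SLC7A11 and TXNRD1), where 28.7% of all protein-coding genes had one. In HET-1A library 2, 2 genes had one (NQO1 and TXNRD1) against 35.4% of all genes. The other lists held none: HET-1A library 1 (0.0942% of all genes), KYSE-30 library 4 (3.87%), KYSE-150 library 7 (1.79%) and KYSE-150 library 8 (0.362%). With these shares over all genes, 0 of 10 carries little information. Its approximate upper limit, taken as 3 counts in 10 genes, is a share of 30.0%. Distal peaks were found at 4 genes in KYSE-30 library 6 (29.9% of all genes), at 3 in HET-1A library 2 (41.7%), at 1 in HET-1A library 1 (0.481%) and at 1 in KYSE-30 library 4 (4.42%). KYSE-150 libraries 7 and 8 held no distal peak of these genes, with 1.95% and 0.878% of all genes called. With 10 genes, these counts in both longer lists were not far from the share of all genes. When the HET-1A library 2 list was shortened to its 11671 peaks of smallest p-value, it still had 2 genes with a promoter peak (30.8% of all genes) and had 2 with a distal peak (34.7%).

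**Figure D1:**
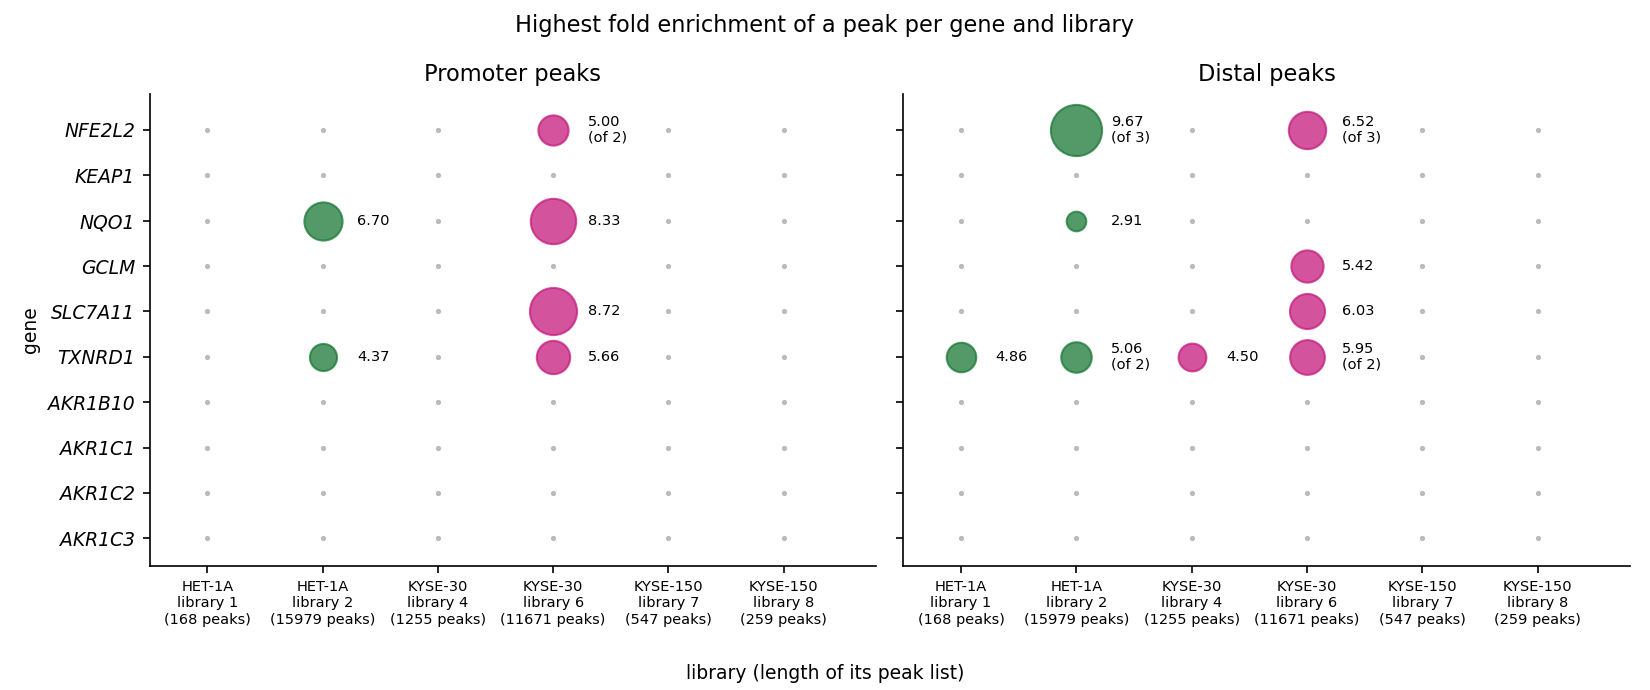
Highest fold enrichment of a promoter peak (left) or distal peak (right) of each gene (rows) in each library (columns, with the number of peaks in its list). Circle area grows with the printed fold enrichment, "of" gives the number of peaks where there was more than 1, and a gray dot marks no peak. The circles stand in 5 rows, and KEAP1 and the 4 AKR1 genes have none.

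Peaks that touched each other were merged into 18 regions, 5 at promoters and 13 distal. Of the promoter regions 2 were shared by HET-1A and KYSE-30 and 3 were found in KYSE-30 only. Over all peaks of these lines, 30.1% of the merged regions within 3 kb of a protein-coding start site were shared, 42.2% were in HET-1A only and 27.6% in KYSE-30 only. Of the distal regions of the 10 genes 2 were shared (the HNRNPA3 start and intron 1 of TXNRD1), 5 were found in HET-1A only and 6 in KYSE-30 only. Over all regions farther than 3 kb from any protein-coding start site the shares were 12.7%, 52.5% and 34.8%. That class is not quite alike, since it leaves out the starts of HNRNPA3 and DNTTIP2, which count as distal regions here. No region of the 10 genes was called in both libraries of one line, and at most 4.81% of all regions of either class were.

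NFE2L2 lies on the minus strand of chromosome 2 (ENSG00000116044, chr2:178083395-178257484) and has 65 annotated transcripts, some of which start far upstream of the canonical start site at 178129455. KYSE-30 library 6 had a peak at chr2:178128217-178128541 with a fold enrichment of 5.00, 19 tags at the summit and a q-value of 3.08e-07. Its summit lay 1102 bp downstream of the canonical start and 25 bp from the nearest annotated start, within a cluster of alternative first exons. The ARE core shown above for the first intron of NFE2L2 was centered 8 bp from this summit. That stretch is intronic in the canonical transcript and lies in an untranslated region annotated for other transcripts of NFE2L2. The fold enrichment of this peak ranked at percentile 34.1 of the promoter peaks of that library, over a local background 2.02 times that of the genome. HET-1A library 2 had no peak here, and its nearest peak was 51.9 kb from the canonical start.

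The other peaks of NFE2L2 were spread over the long 5′ part of the locus. In the first intron, KYSE-30 library 6 had a peak at chr2:178107246-178107492 (fold enrichment 5.06, 17 tags) whose summit was 8 bp from the center of an AP-1 core. A second promoter peak of that library, at chr2:178202869-178203130 (fold enrichment 4.01, 10 tags, q-value 0.00253), belonged to an alternative start (summit at -73530 bp from the canonical one). It too held an AP-1 core, centered 13 bp from its summit. A distal peak of KYSE-30 library 6, at chr2:178261440-178261658, had a fold enrichment of 4.10 over a local background 2.61 times the genome background. HET-1A library 2 had 2 peaks of its own upstream, at chr2:178187526-178187725 (fold enrichment 3.51) and chr2:178216596-178216956 (3.91), each with 16 tags. None of these 5 upstream and intronic peaks was found in both lines. The AP-1 core of the intronic peak is shown with the 100 bases around it (chr2:178107300-178107399, minus strand), since it was the element nearest to a summit outside the start sites of NFE2L2.
NFE2L2 intron 1: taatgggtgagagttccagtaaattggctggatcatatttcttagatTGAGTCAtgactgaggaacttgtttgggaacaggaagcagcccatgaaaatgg

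The strongest peak in the window of NFE2L2 belonged to a neighbor. At the start of HNRNPA3, which encodes an RNA-binding protein, HET-1A library 2 had a fold enrichment of 9.67 with 41 tags and KYSE-30 library 6 of 6.52 with 20 tags. Relative to the genome background these were 12.3 (95% Poisson interval 8.80 to 16.6) and 13.4 (8.21 to 20.8), and the intervals overlapped. The intervals given here cover counting error only.

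KEAP1 (ENSG00000079999, chr19:10596801-10614234, minus strand) had no peak in any library. The nearest peaks were 34.4 kb from its start site in HET-1A library 1 and 43.8 kb in HET-1A library 2, outside the 20 kb window, and 114 kb or more away in the other 4 libraries. Its start site is rich in CpG, with an observed to expected ratio of 0.840, and of all genes with a ratio of at least 0.6, 45.7% had a promoter peak in HET-1A library 2 and 38.2% in KYSE-30 library 6.

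**Figure D2:**
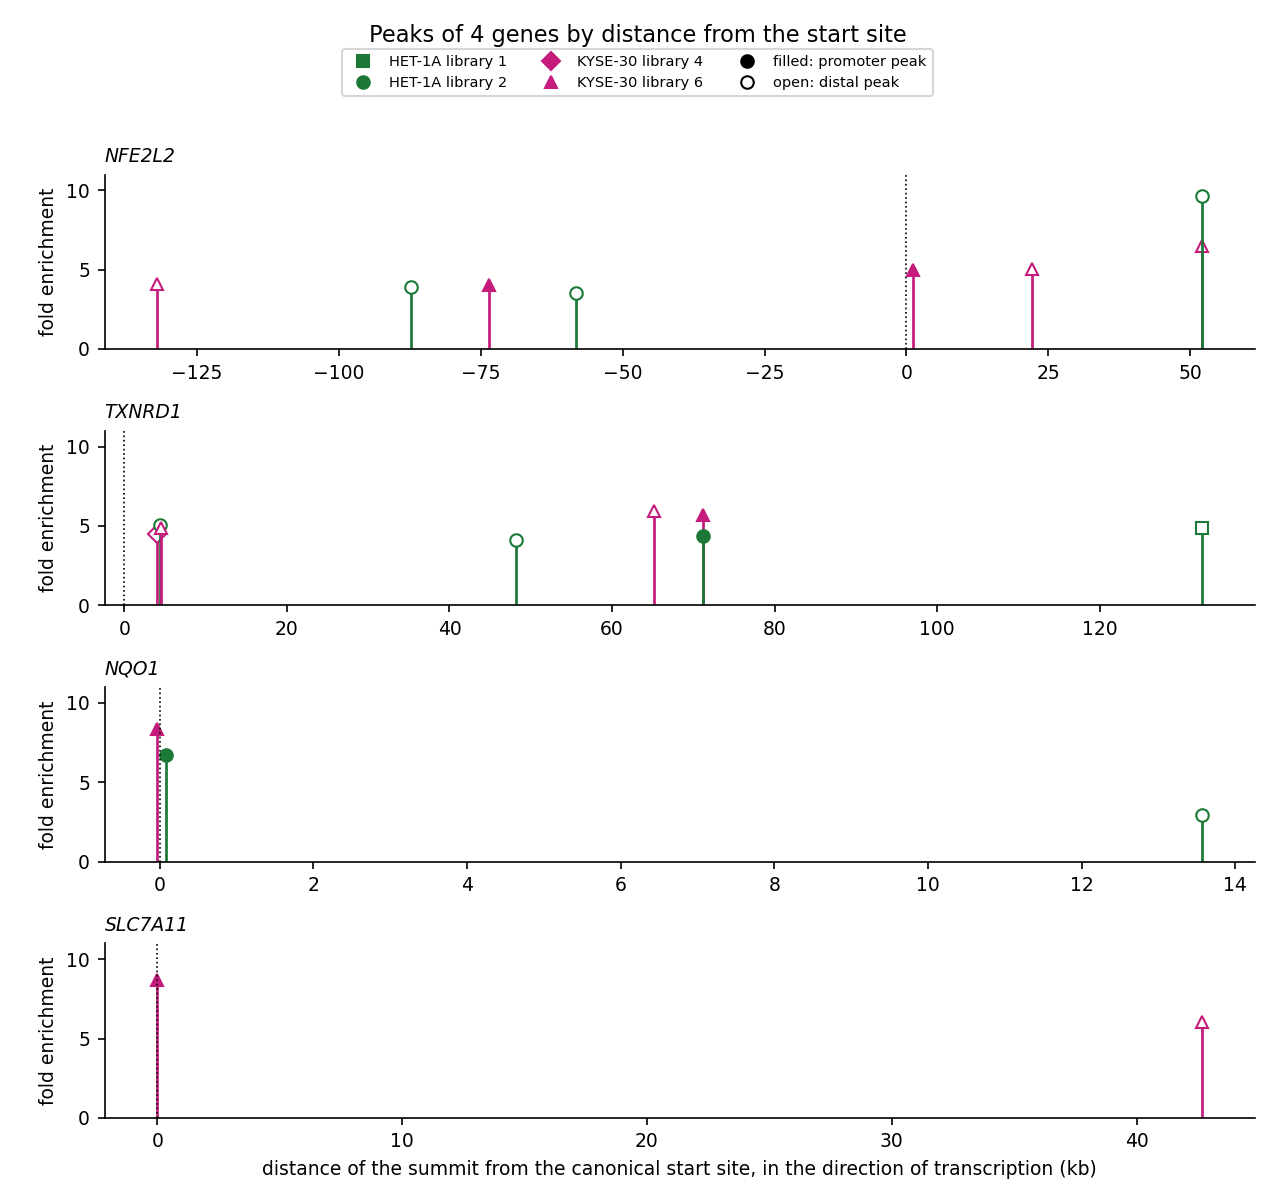
Fold enrichment (vertical axis) of each peak of NFE2L2, TXNRD1, NQO1 and SLC7A11 by the distance of its summit from the canonical start site in kb, negative upstream (horizontal axis, own scale per gene, dotted line at 0). Green marks HET-1A, magenta KYSE-30, filled symbols promoter peaks and open symbols distal peaks. The peaks of NQO1 and SLC7A11 at the start site exceed those of NFE2L2 and TXNRD1, apart from the peak of the neighbor HNRNPA3 at the right end of the NFE2L2 panel.

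NQO1, which encodes a quinone reductase widely used as a readout of NRF2, was the one gene of the 10 whose canonical start site was called in both lines. In HET-1A library 2 the promoter peak at chr16:69760259-69760737 had a fold enrichment of 6.70, 44 tags and a q-value of 1.39e-20. In KYSE-30 library 6 the peak at chr16:69760280-69760689 had a fold enrichment of 8.33, 24 tags and a q-value of 5.57e-15. Both stood high within their own lists, at percentiles 93.8 and 90.9 of promoter peaks, and their summits lay 86 bp downstream and 36 bp upstream of the canonical start. Over the genome background the summits were 13.2 (9.56 to 17.7) and 16.1 (10.3 to 24.0), and these intervals overlapped. NQO1-DT, a divergent non-coding transcript, has a start within 3 kb of the same peaks. The ARE at chr16:69760910-69760918, centered 451 bp upstream of the start site, lay in no peak of any library and 173 bp beyond the nearest peak edge. TGACTCAGC occurs within 3 kb of 6.85% of all start sites, and NQO1 was the only one of the 10 genes with it. HET-1A library 2 also had a weak peak in intron 5 of NQO1 (chr16:69746744-69746943, fold enrichment 2.91, q-value 0.0164), the lowest fold enrichment among the 22 peaks.

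The glutathione genes SLC7A11 and GCLM gave opposite pictures at their start sites. SLC7A11 (chromosome 4, minus strand), the cystine importer subunit of system xc-, had the highest promoter fold enrichment of the 10 genes. In KYSE-30 library 6 the peak at chr4:139163341-139163764 had a fold enrichment of 8.72, 25 tags, a q-value of 4.00e-16 and a summit 10 bp upstream of the start. It stood at percentile 92.9 of promoter peaks and at 16.8 times the genome background (10.9 to 24.8). HET-1A library 2, the longest list, had its nearest peak 772 kb from this start, and the other 4 libraries had theirs 2131 kb away or farther. Within 3 kb of the canonical start, the 2 longest lists differed at SLC7A11 and NFE2L2, each with 1 library on each side, and the SLC7A11 peak covered the start itself.

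SLC7A11 held no ARE core between 250 bp upstream and 50 bp downstream of its start. It held 2 amino acid response element cores, which bind ATF4, a factor induced by amino acid shortage and known to drive SLC7A11 beside NRF2. These were centered 91 and 72 bp upstream of the start, in opposite orientation, and both are in capitals in the sequence given above. TGATGNAA occurs in that window at 2.49% of all genes and at none of the other 9 genes. A second peak of KYSE-30 library 6 lay in intron 6 (chr4:139120641-139120953, fold enrichment 6.03, 14 tags), and the ARE core at chr4:139120865-139120873 was centered 52 bp from its summit. Its sequence is shown with 30 bases because it was the ARE core of SLC7A11 under a peak (chr4:139120855-139120884, minus strand).
SLC7A11 intron 6: atgcaagtctgTGACTAGGCagggcaggta

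GCLM, the modifier subunit of the enzyme that limits glutathione synthesis, had no promoter peak in any library, although its start site had the highest CpG ratio of the 10 genes (0.950). Its ARE core, shown above, was centered 30 bp upstream of the start. The nearest peak of any library was 30.1 kb away. That peak, in KYSE-30 library 6 (chr1:94344394-94344872, fold enrichment 5.42, 17 tags), lay at the start site of DNTTIP2 and counted as distal to GCLM only because it fell within the 20 kb extension.

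TXNRD1, which encodes cytosolic thioredoxin reductase, was the gene with peaks in the most libraries, 4 of 6. No peak was found at the canonical start on chromosome 12 (104609557, plus strand), although 2 ARE cores were centered 95 and 4 bp upstream of it. The promoter peaks instead marked an internal start 71 kb downstream, in intron 3 of the canonical transcript. In KYSE-30 library 6 the peak at chr12:104680336-104680849 had a fold enrichment of 5.66, 23 tags and a q-value of 8.70e-10, with its summit 2 bp from an annotated start. In HET-1A library 2 the peak at chr12:104680647-104680851 had a fold enrichment of 4.37, 18 tags and a q-value of 6.58e-06, with its summit 17 bp from an annotated start. RefSeq also has a start under both peaks, at 104680810, found here by matching its GRCh38 promoter window to hg19. The ARE core of the TXNRD1 internal start, in capitals in the first sequence above, was centered 7 bp from the nearer summit and inside both peaks.

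At the internal start of TXNRD1 the 2 measures of height differed. Over the genome background the summit stood at 15.5 (9.80 to 23.2) in KYSE-30 library 6 and at 5.38 (3.19 to 8.51) in HET-1A library 2, and these counting intervals did not overlap. This ratio also started higher in the list of KYSE-30 library 6, where the smallest summit was 5.38, against 3.59 in HET-1A library 2. The local background was 2.18 times that of the genome in KYSE-30 library 6 and 1.00 times in HET-1A library 2. The fold enrichment over it, 5.66 against 4.37, was closer, and ranked at percentiles 52.6 and 45.0 of the promoter peaks of the same library. With 1 library on each side there is no replicate for this difference.

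In the first intron of TXNRD1, 3 libraries had peaks close to each other. HET-1A library 2 (chr12:104613836-104614094, fold enrichment 5.06, 21 tags) and KYSE-30 library 6 (chr12:104613851-104614146, 4.86, 16 tags) shared a region with an AP-1 core centered 13 bp from the nearer summit. KYSE-30 library 4 (chr12:104613405-104613604, 4.50, 19 tags) had its peak just upstream, with another AP-1 core centered 16 bp from its summit, and it did not overlap the other two. Both cores are shown with 100 bases around them (chr12:104613493-104613592 and chr12:104613904-104614003, plus strand), since this intron was the stretch with peaks in the most libraries.
TXNRD1 intron 1, first: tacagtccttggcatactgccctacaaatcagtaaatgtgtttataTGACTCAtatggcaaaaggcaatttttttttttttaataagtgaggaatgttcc
TXNRD1 intron 1, second: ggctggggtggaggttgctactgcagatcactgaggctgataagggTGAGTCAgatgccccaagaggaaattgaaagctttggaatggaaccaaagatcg

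The remaining peaks of TXNRD1 were each in 1 library. HET-1A library 2 had one in intron 3 (chr12:104657657-104657863, fold enrichment 4.14) with an ARE core centered 16 bp from its summit. KYSE-30 library 6 had one farther along the same intron (chr12:104674388-104674838, 5.95, 21 tags), which held both an AP-1 and an ARE core. HET-1A library 1, whose list had 168 peaks in all, had one in exon 17, the last exon (chr12:104742195-104742396, 4.86, 13 tags, q-value 5.13e-04).

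**Figure D3:**
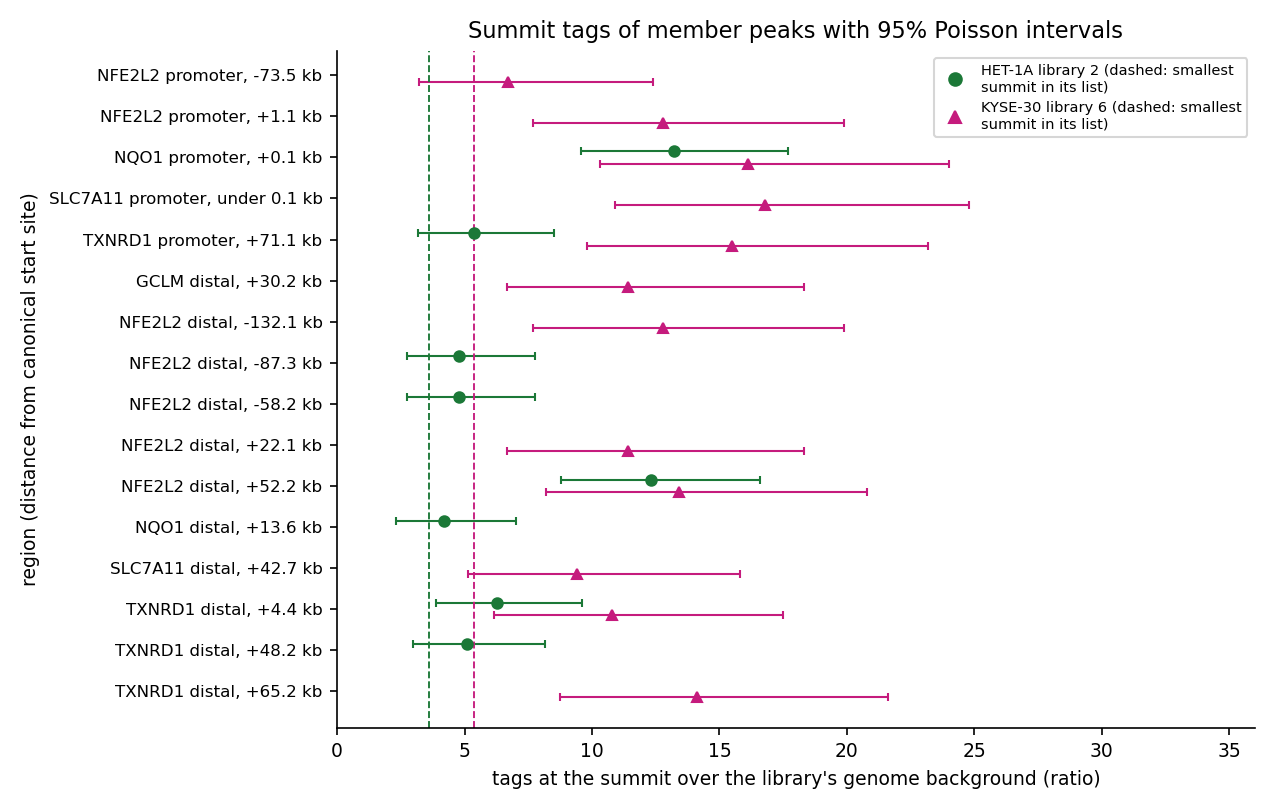
Tags at the summit divided by the genome background of the library (horizontal axis, a ratio) for each region of the 10 genes with a peak in HET-1A library 2 (green circles) or KYSE-30 library 6 (magenta triangles), labeled by gene, class and distance from the canonical start. Bars are 95% Poisson intervals and dashed lines the smallest summit listed in each library (3.59 and 5.38). The intervals overlap at NQO1, at the HNRNPA3 start in the NFE2L2 window and in the first intron of TXNRD1, and not at the internal start of TXNRD1.

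The aldo-keto reductases AKR1B10, AKR1C1, AKR1C2 and AKR1C3, which reduce lipid aldehydes, ketosteroids and prostaglandins, had no peak in any of the 6 libraries. AKR1B10 came nearest, with a peak of KYSE-30 library 6 at chr7:134190691-134190898 (fold enrichment 5.86) 21.4 kb from its start site, just outside the window. The cluster of AKR1C1, AKR1C2 and AKR1C3 lay in a stretch of 725 kb of chromosome 10 that held no peak of any library (between 4729144 and 5454281). The start sites of AKR1C1, AKR1C2 and AKR1C3 were 276, 317 and 318 kb from the nearest peak, and 5.09%, 4.41% and 4.40% of all genes were farther from one. For comparison the median over all genes was 10.4 kb, that of KEAP1 was 34.4 kb and that of GCLM 30.1 kb.

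The AKR1C genes are near copies of each other, and reads from them may map to more than one place. Of the 75-base windows within 500 bp of the start site, 42.7% occurred once in the genome for AKR1C1 and 41.9% for AKR1C2. For AKR1C3 and each of the other 7 genes 100% occurred once. Only canonical start sites were checked in this way. Absence of a peak at AKR1C1 and AKR1C2 is therefore uncertain. AKR1C3 also has a RefSeq start upstream of the canonical one, at 5090973, where repeated windows were not counted. How reads with several positions were treated is not given in the sources used here.

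The 10 genes fell into distinct classes of start site. NFE2L2, KEAP1, GCLM and TXNRD1 had CpG ratios from 0.840 to 0.950, and NQO1, SLC7A11 and the 4 AKR1 genes from 0.239 to 0.476. A promoter peak in any library was found at 2 of the 4 CpG-rich and at 2 of the 6 CpG-poor genes. In HET-1A library 2 these were TXNRD1 and NQO1, and in KYSE-30 library 6 NFE2L2, TXNRD1, NQO1 and SLC7A11. The share over all genes was counted per library only, not over any library. With a ratio of at least 0.6 it was 45.7% in HET-1A library 2 and 38.2% in KYSE-30 library 6. With a ratio below 0.6 it was 15.4% and 10.4%. The CpG-poor NQO1 and SLC7A11 had the 3 highest promoter fold enrichments of the 10 genes. The promoter peaks of the CpG-rich NFE2L2 and TXNRD1 did not cover the canonical start base, and that of TXNRD1 lay outside 3 kb of it.

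ARE cores were counted in the start windows and around the summits of the peaks. Between 250 bp upstream and 50 bp downstream of the start, 2 of the 10 genes (GCLM and TXNRD1) held TGACNNNGC, and 14.1% of all genes did. In 200 bp around the summit, 2 of the 5 promoter regions held it (TXNRD1 and NFE2L2). Of all promoter peaks, 12.4% held it in HET-1A library 2 and 11.4% in KYSE-30 library 6. Of the 13 distal regions 3 held an ARE core and 4 an AP-1 core in that span. The span can reach beyond the peak, and the ARE core near the exon 17 summit of TXNRD1 lay outside the peak. Within whole peaks, 4 of the distal regions held an ARE core and 4 an AP-1 core. Of the peaks outside promoters, 37.1% in HET-1A library 2 and 48.4% in KYSE-30 library 6 held an AP-1 core, and 12.4% and 14.1% an ARE core. A match of these letters is a description only.

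A further 62 genes of the NRF2 pathway were counted by role. In HET-1A library 2, 39 of them (62.9%) had a promoter peak and in KYSE-30 library 6, 25 (40.3%), against 35.4% and 28.7% of all genes. Of the 39, 18 were also among the 25, which is 46.2% of the first and 72.0% of the second. The same overlap was not counted over all genes, so these shares cannot be read as a trait of the pathway. By base composition, 49 of the 62 genes had a ratio of at least 0.6, and of these 69.4% had a promoter peak in HET-1A library 2 and 42.9% in KYSE-30 library 6, against 45.7% and 38.2% of all such genes. Of the 13 with a lower ratio, 38.5% and 30.8% had one, against 15.4% and 10.4% of all such genes. The other 4 lists called 2, 2, 0 and 0 of the 62 genes (KYSE-30 library 4, KYSE-150 library 7, HET-1A library 1 and KYSE-150 library 8).

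By role, the 6 genes of NADPH supply all had a promoter peak in HET-1A library 2 and 2 had one in KYSE-30 library 6. For the 12 regulators and partners of NRF2 the counts were 9 and 4. The 5 efflux transporters ran the other way, with 2 and 4. These are counts in 1 library per line and were not tested. Over all genes 35.4% had a promoter peak in HET-1A library 2 and 28.7% in KYSE-30 library 6. The roles were not counted in lists of equal length. CUL3, the scaffold of the KEAP1 ubiquitin ligase, had the highest fold enrichment of the list in both libraries, 7.37 and 10.3, while KEAP1 itself had no peak. Next in HET-1A library 2 came TALDO1 (6.37), an enzyme of the pentose phosphate pathway, and GSTA4 (6.32), a glutathione transferase for lipid aldehydes. In KYSE-30 library 6 they were IDH1 (8.84), a source of cytosolic NADPH, and SELENOF (6.95), a selenoprotein of the endoplasmic reticulum. GSTA4, SLC3A2, BLVRB and OSGIN1 had a promoter peak in 3 libraries. SLC3A2 encodes the partner chain of SLC7A11, and its promoter had a fold enrichment of 5.36 (HET-1A library 2), 4.44 (KYSE-30 library 6) and 4.15 (KYSE-150 library 7). The SLC3A2 promoter was thus called in HET-1A, where that of SLC7A11 was not.

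**Figure D4:**
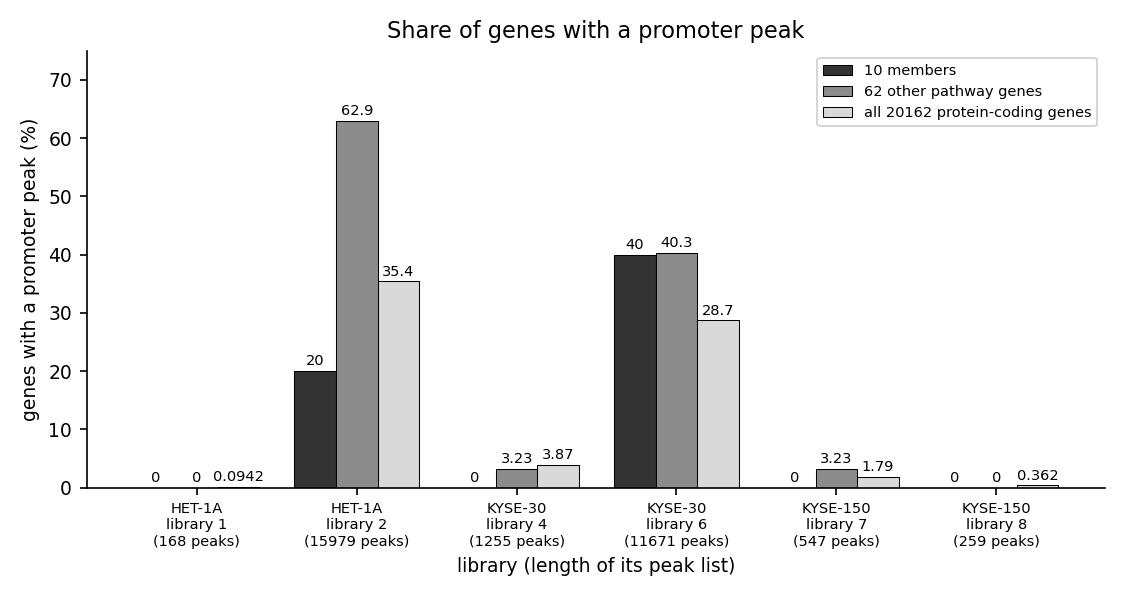
Share of genes with a promoter peak in percent (vertical axis) in each library (horizontal axis, with the length of its list) for the 10 genes (black), the 62 other pathway genes (dark gray) and all 20162 protein-coding genes (light gray). The 62 genes stand above all genes in HET-1A library 2 and KYSE-30 library 6, and the 4 short lists are near 0 for every set.

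**Figure D5:**
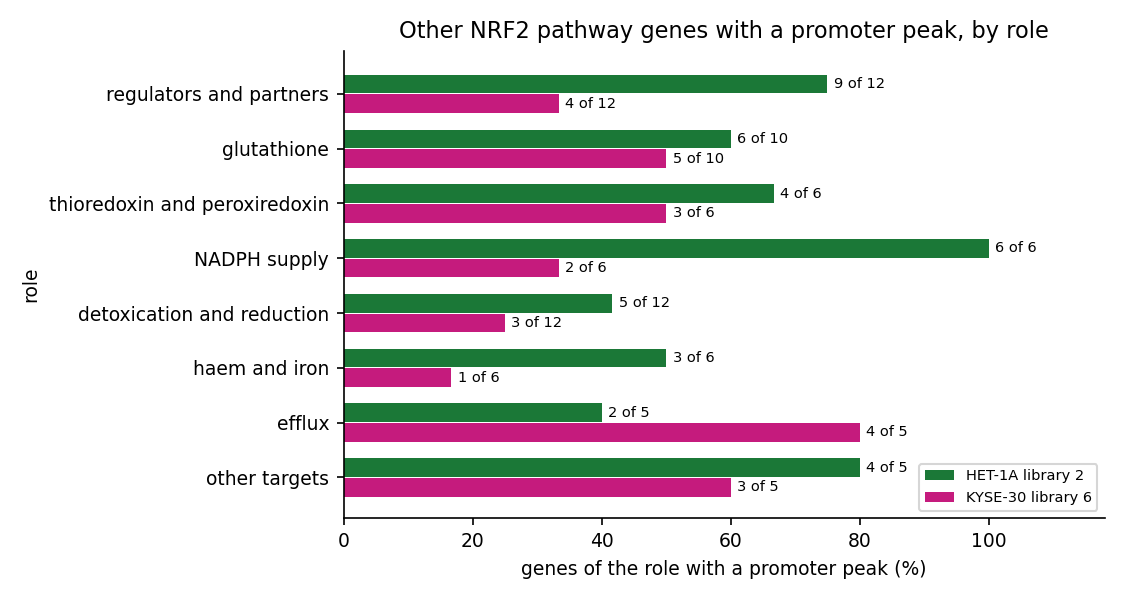
Share of the 62 other pathway genes with a promoter peak in percent (horizontal axis), by role (vertical axis), in HET-1A library 2 (green) and KYSE-30 library 6 (magenta), with the counts printed at the bars. NADPH supply runs from 6 of 6 to 2 of 6, and efflux from 2 of 5 to 4 of 5.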

How the data were processed

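ATAC-seq peak lists of 6 libraries from 3 cell lines were analysed. According to the study's methods and the submitters' processing notes, the authors trimmed the reads, mapped them to hg19 with Bowtie2 2.3.3.1, marked duplicates with Picard 2.2.1, filtered blacklisted regions with bedtools, corrected read positions for Tn5, used only fragments below 100 bp and called peaks per library, without pooling, with MACS2 2.1.0.20160309 at a q-value of 0.05. The deposited lists hold a score (10 times −log10 of the q-value), a fold enrichment (a ratio) and −log10 of the p-value and q-value. These deposited p-values and q-values describe a peak within its own list.

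Summit tags and local background were recovered from fold enrichment and p-value (tolerance 0.001 on −log10 p), which was tested on simulated data. The genome background of a library, its smallest local background, was 1.49 to 3.34 tags and stands for its relative depth, since read totals are not used here. Poisson intervals are exact, at 95%. Peaks were set against GENCODE release 44 lifted to hg19, with an overlap of 1 bp. Percentiles rank fold enrichment among the promoter peaks of the same library. CpG ratios are observed over expected, over 500 bp to each side of the canonical start site. RefSeq promoter windows (GRCh38.p14) were available for 8 of the 10 genes, all but SLC7A11 and AKR1B10, and each of these windows was found in hg19.

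The members and lists were chosen with earlier results of these data known. All 10 members are named. Of the 62 pathway genes, those with a promoter peak in 3 or more libraries and the 3 of highest fold enrichment in the longest list of HET-1A and of KYSE-30 are named. TGACTCAGC, TGATGNAA and the 75-base windows were chosen after the data were seen. The tools were pysam 0.24.0, scipy 1.17.1, pandas 2.3.3, numpy 2.4.6, matplotlib 3.10.9 and Python 3.11.15. The alternatives were stricter q-values, other widths and overlaps, the canonical start only, equal list lengths, each library left out, both libraries required, and tags over the genome background.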

Additional observations from a re-analysis of the deposited data

How the results depend on the processing

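Of 104 alternative values, 86 stayed within 1.5 times or 1 SD of the reported one, 44 of them zeros that stayed 0, and 18 moved. With the canonical start site alone, HET-1A library 2 had 1 gene with a promoter peak, NQO1. With an equal number of 168 peaks per library, HET-1A library 2 and KYSE-30 library 6 had 0 genes with a promoter peak, and these and KYSE-30 library 4 had 0 with a distal peak. With 50 kb around the gene, HET-1A library 1 had 2 genes with a distal peak and library 2 had 5. When a peak was needed in both libraries of the line, 0 genes had a promoter peak and 1 had a distal peak, TXNRD1, in HET-1A and in KYSE-30. In each line the distal peaks of TXNRD1 in the separate libraries lay at different sites and did not overlap. Each count for a line rested on 1 library. Without HET-1A library 2 or without KYSE-30 library 6, 0 genes had a promoter peak and 1 a distal peak, and without the other library of the line the counts of genes with a promoter peak were 2 and 4 and those with a distal peak 3 and 4. The median promoter fold enrichment of the members was 5.54 in HET-1A library 2 and 5.66 in KYSE-30 library 6 as deposited, and 9.29 and 15.5 as tags over the genome background. A smaller peak number limits every count of 0, and the shorter lists cannot show that a site was closed. The search within 200 bp of the summit was added after the data were seen.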
